A study of Mus musculus with 4 samples.

Results

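The receptors and bridging proteins examined here are 10 genes that macrophages use to find, bind and engulf dying cells: Gas6, Pros1, Axl, Mertk, Timd4, Mfge8, Stab1, Cd36, Elmo1 and Vsig4. They are represented by all array probes whose platform annotation gives 1 of these symbols, 27 of the 45281 probes and 10 of the 19057 genes with a symbol on the array. The samples were peritoneal macrophages sorted from untreated C57BL/6 mice aged 8 to 16 weeks, with 2 Illumina bead arrays from mice labelled control and 2 from mice labelled Mac-Gata6 KO. The knockout mice carried a floxed Gata6 and a Cre driven by LysM, a promoter active in myeloid cells generally and not in peritoneal macrophages alone; whether control mice carried Cre or floxed alleles, and whether a sample pooled animals, is not stated by the labels. GATA6 is a zinc finger transcription factor that resident peritoneal macrophages require for their tissue-specific gene programme, and the series asks which genes depend on it.

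As background, removal of dying cells (efferocytosis) runs through recognition, bridging and engulfment. Dying cells expose phosphatidylserine, which some receptors bind directly and which others bind through soluble bridges. Gas6 and Pros1 join phosphatidylserine to the receptor kinases Axl and Mertk, Mfge8 joins it to alpha-v integrins, and Elmo1 is part of the Rac activator that drives the cell membrane around the target. Peritoneal macrophages are known for strong uptake of dying cells through Timd4 and Mertk.

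Of the 27 member probes 19 were detected (detection p under 0.05) on 2 or more arrays and so passed the filter; these are called kept. All 19 were detected on at least 1 array of each group. Some dim Elmo1 probes missed detection on 1 array of their dimmer group, so the brighter group alone would have kept them. None of those was called in the main setting. The 19 kept probes covered 9 of the 10 genes, since the Cd36 probe was not kept. Levels below are log2 normalized intensities of a probe on an array. A change is the knockout mean minus the control mean on that scale with the standard error of limma's fit, and a probe was called when its Benjamini-Hochberg adjusted p over all 16713 kept probes was under 0.05.

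Gas6 had the largest rise among the members and Mfge8 the largest fall. Smaller changes were called for Axl, Vsig4 and 1 probe of Stab1, while Pros1, Mertk, Timd4 and Elmo1 were not called and Cd36 was not measured above background. Of the 19 kept member probes 3 were higher and 3 lower in the knockout, together 31.6%, where 10.7% of all kept probes were called, 5.63% higher and 5.06% lower. The higher probes belonged to Gas6, Axl and Stab1, and the lower ones to Mfge8 (2 probes) and Vsig4. Elmo1 alone gave 8 of the 19 kept probes, none of them called. By the brightest kept probe of each gene, 3 of 9 members were higher and 2 lower, together 55.6%. Among all 9200 genes with a symbol, counted the same way, 10.7% were called, 5.66% higher and 5.07% lower. A change of at least 2-fold was seen for Gas6 upwards and for both Mfge8 probes downwards, against 3.12% and 2.65% of all kept probes called at that size. The median change was 0.01 over the 19 member probes and -0.0014 over all kept probes. The members were chosen with earlier results of these data known, so these shares describe the list and say nothing of chance.

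**Figure D1:**
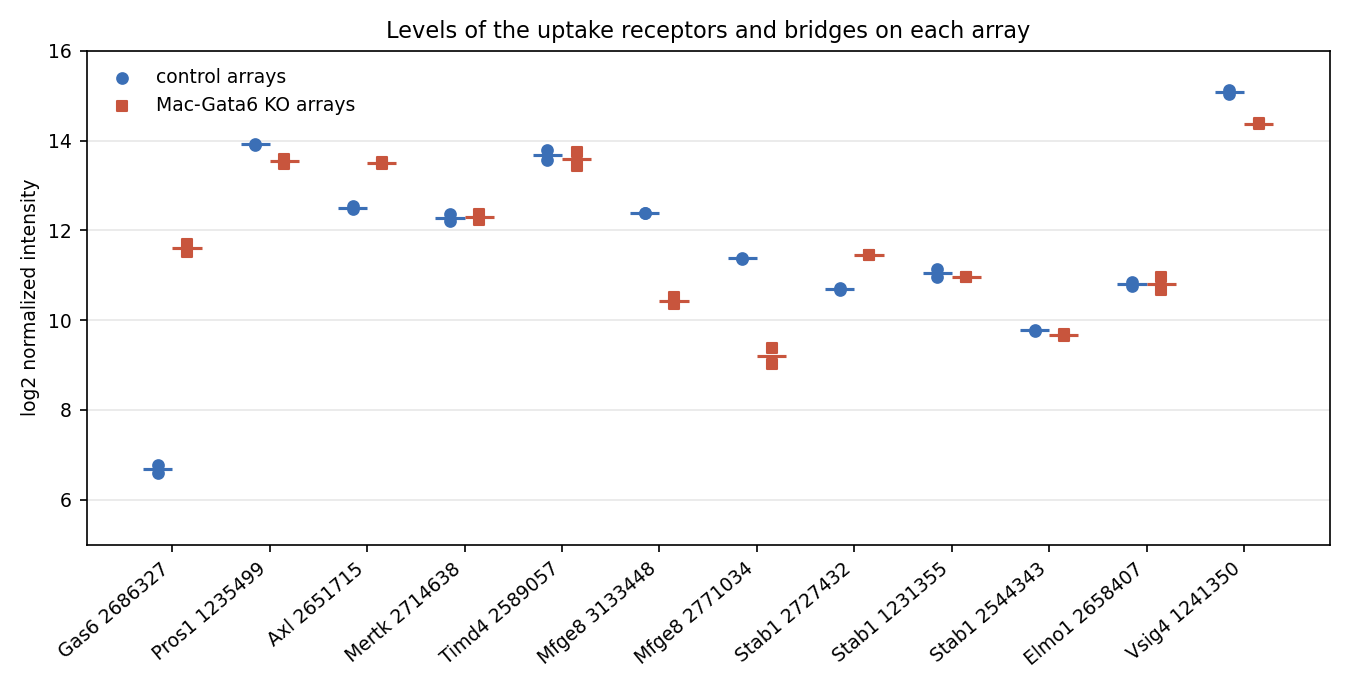
Log2 normalized intensity of each member probe on each of the 4 arrays, control as circles and Mac-Gata6 KO as squares, with lines at the group means (2 arrays each). Gas6 lies near 6.68 in control and near 11.60 in the knockout, both Mfge8 probes lie lower in the knockout, and the groups overlap for Mertk and Timd4. The 7 dim Elmo1 probes are left out here, and heights of different probes are not comparable.

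The targeted gene and the cell type markers set the frame for these values. The brighter Gata6 probe had a level of 13.77 and 13.66 in control and 13.07 and 12.83 in the knockout, a change of -0.76 ± 0.16 (limma adjusted p = 0.0333). It was not called once any 1 array was dropped or with no detection filter. A second, dim Gata6 probe, detected on both control arrays and on no knockout array, had a bound of at least 1.74-fold lower. Its fitted change was -1.03 (limma adjusted p = 0.016). This probe was kept through detection in control alone, where it is high, so its call was favoured by the filter. Where these probes lie relative to the floxed part of the gene is not known here, so the remaining signal (59.0% of control on the brighter probe) does not by itself check the labels. All 5 core macrophage markers with a symbol on the array were detected. Of these, Adgre1 (F4/80) and the Fc receptor Fcgr1 fell, with changes of -1.56 and -2.94. Csf1r, Lyz2 and Itgam were not called, at changes of 0.46, 0.06 and -0.45. For the counts of markers called here, the shares over all 9200 genes with a symbol were 5.66% higher and 5.07% lower. Large peritoneal macrophage markers had 4 of 6 lower, Gata6 and the member Vsig4 among them, and their summed normalized signal went from between 113548 and 123231 in control to between 63286 and 63328 in the knockout. Genes listed here as small peritoneal macrophage markers had 6 of 7 higher, with sums from between 5158 and 5564 to between 58335 and 61774. The brightest of them in the knockout were Folr2, Mrc1, Lyve1 and H2-Eb1, at means of 14.46, 13.96, 13.65 and 12.75. Irf4 was not called (change 0.47, limma adjusted p = 0.143), and how specific this list is to that cell type was not tested. Of the 6 called higher, Ccr2 and Cd226 were kept through detection in the knockout alone. Cd226 was not called without control 1, without control 2 or with no detection filter. All 4 B cell markers tested were higher (sums of 686 to 690 and of 1448 to 1675), as were all 3 erythroid markers tested (104 to 110 and 762 to 767), of which Hbb-bs and Hba-a1 too were kept through the knockout alone. The B cell marker Cd79b was called with knockout 1 left out but with no other array left out. Of 3 mast cell markers tested 1, Cpa3, was called higher, a call lost with any 1 array left out, without background correction, on the authors' values and under a robust variance with intensity trend. The only neutrophil marker tested, S100a8, was lower with a change of -1.07, and was called with knockout 2 left out but with no other array left out. None of the 4 mesothelial, 4 eosinophil and 5 dendritic cell markers was kept, and 5 of 6 T and NK cell markers were not. In bulk samples such as these, fewer cells of a type and less RNA per cell cannot be told apart, and the part these markers play in the results was not tested.

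Gas6, the vitamin K-dependent bridge to the receptor kinases, was 30.3-fold higher in the knockout. Its raw intensities were 219.9 and 219 in control, against 3385 and 3234 in the knockout. The normalized levels were 6.59 and 6.77 in control and 11.70 and 11.51 in the knockout, so the groups lay far apart compared with the spread inside each (SD 0.12 and 0.13, n = 2). Detection p-values were 0.0064 and 0.0032 in control and 0 in the knockout, so the probe was detected on all 4 arrays, in control only just above background. The change was 4.92 ± 0.16 on the log2 scale (limma adjusted p = 4.76e-05), and the 95% interval ran from 4.54 to 5.31. Because the control signal was close to background, the size depends on background correction: the change was 3.78 without it, 3.88 with the authors' processed values and 4.52 with an offset of 50, called each time. Of the genes listed above as small peritoneal macrophage markers, 6 of 7 were also higher. With only 2 groups every gene higher in the knockout shares this direction, and a link to Gas6 was not tested. Over the 4 arrays the named genes with the nearest centred levels were Cd209f, at a Euclidean distance of 0.23 log2 units, and Ear3, at 0.24. Ear3 is a member of a family of near-identical genes whose probes may bind each other's transcripts. With 2 arrays per group such a distance mostly picks genes with a change of similar size, here 5.12 and 5.03, and shared regulation was not tested.

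Pros1, protein S, the other bridge to these receptors and an anticoagulant in plasma, did not pass the test. Its levels were 13.91 and 13.93 in control and 13.59 and 13.48 in the knockout. Both knockout arrays thus lay below both control arrays. Across all kept probes, groups did not overlap for 55.3%, with the knockout above for 27.5% and below for 27.8%. The change was -0.38 ± 0.14 (unadjusted p = 0.0368, limma adjusted p = 0.159), or 76.8% of the control level, with a 95% interval from -0.73 to -0.03. It passed in 3 other settings, at an adjusted p of 0.0269 without background correction, 0.0334 on the authors' values and 0.0112 under a robust variance with intensity trend. The Gas6 change exceeded the Pros1 change by 5.30 on the log2 scale within arrays. The exact two-sided permutation p of that difference was 0.333, the smallest that 2 arrays against 2 allow.

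Mfge8, the milk fat globule protein that ties phosphatidylserine to alpha-v integrins, fell on both of its probes. Probe ILMN_3133448 had levels of 12.40 and 12.38 in control and 10.51 and 10.37 in the knockout. Probe ILMN_2771034, designed to another transcript record, had levels of 11.37 and 11.39 in control and 9.38 and 9.03 in the knockout. On neither probe did the groups overlap, as for 55.3% of all kept probes, and the 2 control arrays were nearly equal. The changes were -1.95 ± 0.15 (limma adjusted p = 0.000725) and -2.17 ± 0.17 (0.000935), or 25.8% and 22.2% of the control level. Raw intensity fell from 6005 and 4921 to 1541 and 1516 on the first probe and from 2957 and 2485 to 764 and 671 on the second, all far above background. Both probes were called in every setting in which they were tested, with changes between -2.35 and -1.86. The changes of the 2 probes differed by 0.22, with an exact two-sided permutation p of 0.333, the smallest possible here. The nearest named genes in centred levels were Gadd45a (distance 0.09) and Abcb4 (0.11) for the first probe and Trib2 (0.09) and Lrrk2 (0.10) for the second. Here too the distance mostly picks genes with a change of similar size, in that order -2.02, -1.87, -2.13 and -2.14.

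**Figure D2:**
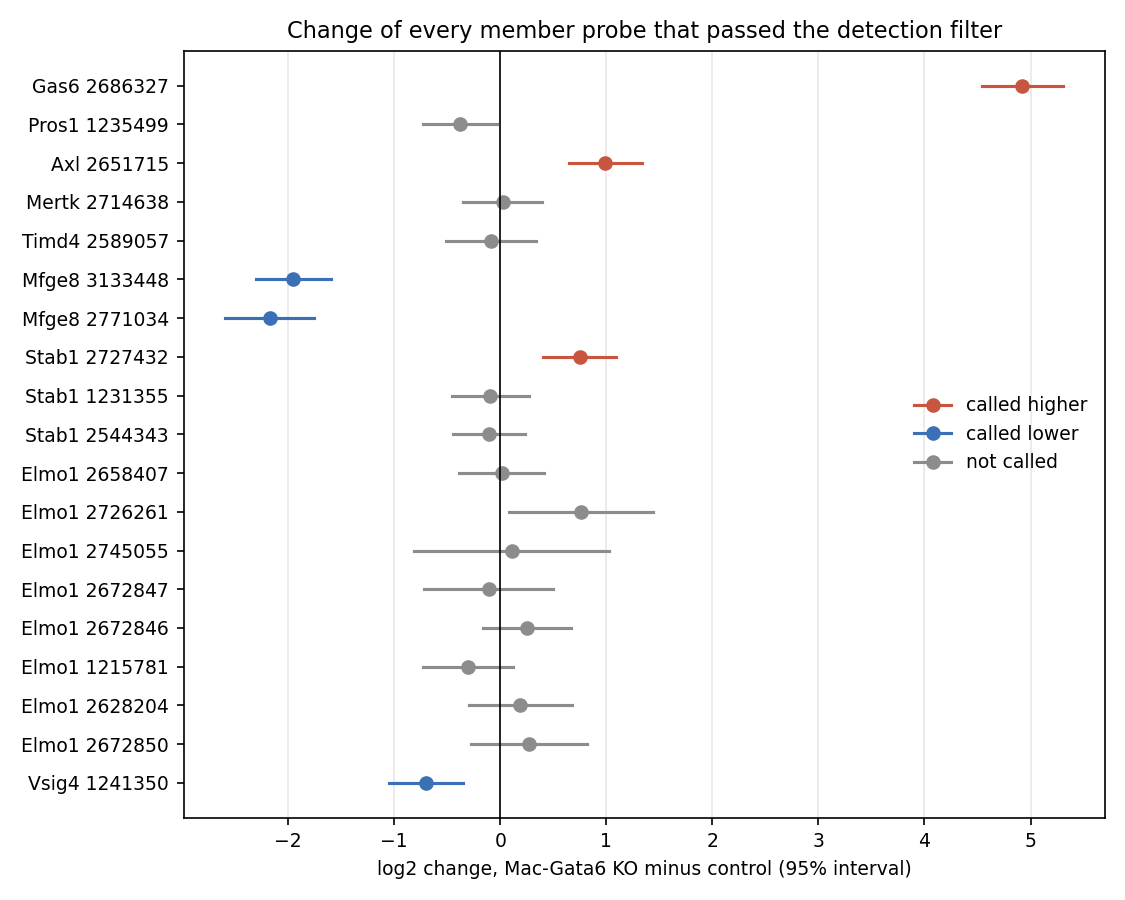
Change of each of the 19 kept member probes, Mac-Gata6 KO minus control on the log2 scale, with 95% intervals from limma, 2 arrays per group. Gas6 at 4.92 and the Mfge8 probes at -1.95 and -2.17 lie away from the rest, and of the 13 probes not called all but Pros1 and 1 dim Elmo1 probe have an interval that includes 0.

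Because the study removes a GATA factor, the promoter windows of the members are shown for the letters GATA, on either strand. Windows of RefSeq on build GRCm38.p6 run from 250 bases before the annotated start to 50 bases from it on, and all 10 genes matched, with 11 windows since Elmo1 has 2. The sequences below are those of the largest rise (Gas6), the largest fall (Mfge8) and the 2 genes with a longer motif (Pros1 and Timd4), read 5′ to 3′ on the strand of the gene. Capitals mark GATA or its reverse complement TATC. Gas6 lies at chr8:13494486-13494785 (minus strand), Mfge8 at chr7:79149011-79149310 (minus), Pros1 at chr16:62854057-62854356 (plus) and Timd4 at chr11:46810549-46810848 (plus).
Gas6: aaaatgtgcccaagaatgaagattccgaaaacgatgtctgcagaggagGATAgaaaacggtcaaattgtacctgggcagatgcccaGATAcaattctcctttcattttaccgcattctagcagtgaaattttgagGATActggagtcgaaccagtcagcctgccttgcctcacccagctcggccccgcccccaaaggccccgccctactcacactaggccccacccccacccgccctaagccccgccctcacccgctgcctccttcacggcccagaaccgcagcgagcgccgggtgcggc
Mfge8: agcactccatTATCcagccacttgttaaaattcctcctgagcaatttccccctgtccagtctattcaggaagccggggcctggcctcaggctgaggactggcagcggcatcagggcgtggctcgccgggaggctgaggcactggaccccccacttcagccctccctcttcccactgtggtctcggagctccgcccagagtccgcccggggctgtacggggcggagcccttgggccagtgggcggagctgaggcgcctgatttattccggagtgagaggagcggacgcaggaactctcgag
Pros1: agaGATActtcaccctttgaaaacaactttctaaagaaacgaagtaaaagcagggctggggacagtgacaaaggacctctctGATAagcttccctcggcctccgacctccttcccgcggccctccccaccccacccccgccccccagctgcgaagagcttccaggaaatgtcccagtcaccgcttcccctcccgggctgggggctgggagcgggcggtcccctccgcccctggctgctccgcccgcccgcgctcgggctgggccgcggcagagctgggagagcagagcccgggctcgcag
Timd4: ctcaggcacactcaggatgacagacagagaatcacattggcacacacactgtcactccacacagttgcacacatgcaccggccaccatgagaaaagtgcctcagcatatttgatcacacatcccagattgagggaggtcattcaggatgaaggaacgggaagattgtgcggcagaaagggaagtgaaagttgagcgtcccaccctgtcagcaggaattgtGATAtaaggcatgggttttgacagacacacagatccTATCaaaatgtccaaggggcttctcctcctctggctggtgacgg

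The letters GATA were present in 6 of the 11 member windows and in 57.9% of the 32851 windows in the table. Gas6 held 3 copies, at positions -202, -164 and -115 from the start, and Mfge8 1 copy at -240. A longer form (A or T, then GATA, then A or G, on either strand, so that each match contains the core) was found in 2 member windows, Pros1 and Timd4, and in 29.8% of all windows. Neither of these genes was called. Of the other genes with a called probe, Stab1 held 2 copies of GATA, at -39 and 10, and Axl and Vsig4 held none. A match is a run of letters and not a binding site, and nothing about GATA6 binding follows from these counts.

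Of the receptor kinases, Axl rose and Mertk did not pass. Axl, which in macrophages is typically induced by inflammatory signals, had levels of 12.53 and 12.47 in control and 13.47 and 13.51 in the knockout. The spread within each group (SD 0.05 and 0.03, n = 2) was small against the gap between them. The change was 0.99 ± 0.14 (limma adjusted p = 0.00864), a 1.99-fold rise. Without control 1 it was still called, while without control 2, knockout 1 or knockout 2 its adjusted p was 0.0509, 0.0515 and 0.0514. A second Axl probe, designed to another record, was not detected on any array, with raw intensities from 125.3 to 148.6, and was not tested.

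Mertk, a kinase through which resident macrophages take up apoptotic cells, had overlapping groups. Its levels were 12.37 and 12.20 in control and 12.24 and 12.37 in the knockout. The change was 0.02 ± 0.15 (limma adjusted p = 0.947), and its 95% interval, -0.35 to 0.39, leaves room for a shift of up to that size either way. The change of Axl exceeded that of Mertk by 0.97 within arrays. The Axl-minus-Mertk differences were 0.17 and 0.27 in control and 1.23 and 1.14 in the knockout, groups that do not overlap, with an exact two-sided permutation p of 0.333, again the smallest possible.

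Among receptors that bind dying cells directly, Timd4 had no detectable difference. Timd4 (TIM-4) tethers phosphatidylserine and marks large resident peritoneal macrophages. Its levels were 13.79 and 13.57 in control and 13.44 and 13.75 in the knockout, with a change of -0.08 ± 0.18 (limma adjusted p = 0.815; 95% interval -0.51 to 0.34). Of the other large peritoneal macrophage markers tested, Selp and Cd93 fell most, with changes of -3.40 and -2.54. Gata6 and Vsig4 fell less, at -0.76 and -0.70, and Icam2 was not called (-0.56, limma adjusted p = 0.0616).

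Stab1, stabilin-1, a scavenger receptor that also binds phosphatidylserine, gave different readings on its 3 probes. Probe ILMN_2727432 rose, with levels of 10.66 and 10.73 in control and 11.44 on both knockout arrays. Its change was 0.75 ± 0.14 (limma adjusted p = 0.0236). With any 1 array left out it was not called, at adjusted p-values of 0.112 without control 1, 0.0895 without control 2, 0.0993 without knockout 1 and 0.0917 without knockout 2. Probe ILMN_1231355 had overlapping levels of 10.95 and 11.15 in control and 10.96 and 10.95 in the knockout, with a change of -0.09 ± 0.15 (adjusted p = 0.762). Probe ILMN_2544343 had 9.79 and 9.75 against 9.65 and 9.68, with a change of -0.11 ± 0.14 (adjusted p = 0.706). The rising probe and ILMN_2544343 were designed to the same transcript record and ILMN_1231355 to another. Within arrays the rising probe minus ILMN_1231355 went from -0.29 and -0.42 in control to 0.48 and 0.49 in the knockout, a shift of 0.84 with an exact two-sided permutation p of 0.333, the smallest possible. A direction for the gene as a whole therefore depends on the probe.

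Cd36, a scavenger receptor for oxidized lipids and apoptotic cells, was not measured above background. Raw intensities of its only probe were 151.8 and 157.6 in control and 137 and 168 in the knockout, with detection p-values from 0.0694 to 0.229. No array detected it, and no change was estimated.

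Vsig4 (CRIg), a receptor for complement C3 fragments on resident macrophages, was lower in the knockout. Raw intensities were 40755 and 33225 in control and 19362 and 21283 in the knockout. The normalized levels were 15.13 and 15.03 against 14.39 and 14.37. The groups did not overlap, which held for 55.3% of all kept probes. The change was -0.70 ± 0.14 (limma adjusted p = 0.0306), or 61.6% of the control level. With any 1 array left out the change stayed between -0.74 and -0.65 but was not called, at adjusted p-values of 0.144 without control 1, 0.103 without control 2, 0.116 without knockout 1 and 0.105 without knockout 2.

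Elmo1, the engulfment adaptor that works with Dock proteins to activate Rac, had 14 probes. None of the 8 kept was called in the main setting. Only probe ILMN_2658407 was bright. It had levels of 10.76 and 10.84 in control and 10.96 and 10.67 in the knockout, overlapping groups with a change of 0.01 ± 0.16 (limma adjusted p = 0.974; 95% interval -0.39 to 0.41). The other 7 kept probes, all designed to another transcript record, lay between 5.40 and 7.04, near background. Their changes ran from -0.30 to 0.76, 5 of them positive. Probe ILMN_2726261 had the largest of these, 0.76 ± 0.28 (unadjusted p = 0.0332, adjusted p = 0.15), with detection on 1 of 2 control arrays and on both knockout arrays. The remaining 6 probes did not pass the detection filter and were not tested. All dim probes together give no more than that, since their 95% intervals reach up to 0.92 either side of the estimate.

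**Figure D3:**
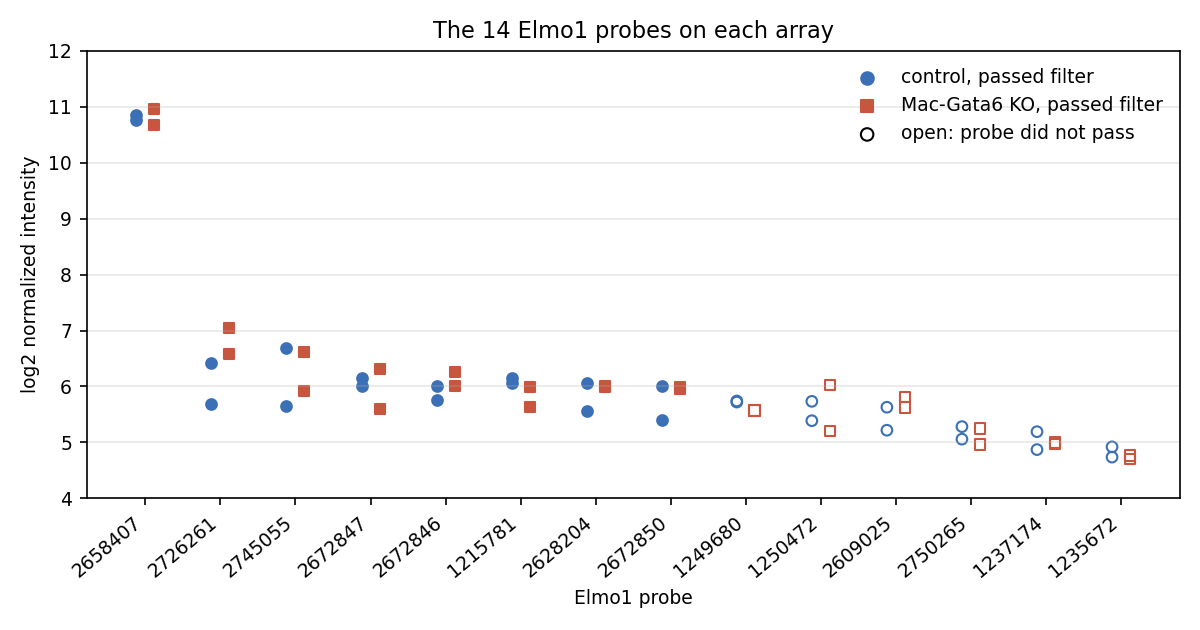
Log2 normalized intensity of the 14 Elmo1 probes on each array, filled where the probe passed the detection filter and open where it did not. Probe ILMN_2658407 lies between 10.67 and 10.96 in both groups, and the other kept probes lie between 5.40 and 7.04.

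Beyond the 10 members, 101 genes of the wider uptake pathway were grouped in 6 lists, and 72 had a kept probe. By the brightest probe of each gene 11 were higher and 3 lower, together 19.4%, where 10.7% of all 9200 genes with a symbol were called, 5.66% higher and 5.07% lower. The 11 include Itgb5 and Pparg, which were kept through detection in the knockout alone, where they are high, so their calls were favoured by the filter. The median change was 0.02 over the 72 genes and 1e-04 over all genes. Of the 14 called genes 8 were called with any 1 array left out. The lists were drawn up with earlier results known, so the counts are a description.

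Receptors for phosphatidylserine and apoptotic cells had 1 of 6 tested genes called and a median change of -0.27. Scarf1, a scavenger receptor that binds complement C1q on dying cells, rose from 8.99 to 9.86, a change of 0.88 ± 0.16 (limma adjusted p = 0.0214), and was not called with any 1 array left out. Tyro3, the third receptor kinase of the Axl and Mertk family, was not detected. Among genes listed here as bridging proteins and opsonins 1 of 10 was higher and 1 lower, with a median change of 0.04. The annexin Anxa5, which binds phosphatidylserine, rose by 1.34 ± 0.16 (limma adjusted p = 0.00452). Whether Anxa5 acts as a bridge was not tested. Thrombospondin Thbs1, a bridge to Cd36 and integrins, fell by 2.47 ± 0.25 (adjusted p = 0.00253).

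Scavenger receptors and phagocytic integrins had 3 of 12 tested genes higher and none lower, with a median change of -0.03. Mannose receptor Mrc1 rose from levels of 9.95 and 10.00 to 13.98 and 13.95, a change of 3.99 ± 0.14 (limma adjusted p = 6.05e-05). The haptoglobin-haemoglobin receptor Cd163 rose by 2.98 ± 0.15 (adjusted p = 0.000189), and its other kept probe by 1.02. Itgb5, a partner of the alpha-v integrin that Mfge8 binds, had a limma adjusted p of 0.0272 for its fitted change. It was at least 1.30-fold higher in the knockout, its control level being not well above background. That bound sets the knockout mean against the higher of the probe's own level and the lowest detected level on each control array. Itgb5 had passed the filter only through the knockout arrays, was not called without control 1, without control 2, without background correction or with no detection filter, and was not kept with a knockout array left out. The alpha-v subunit gene Itgav itself did not pass on any of its 3 kept probes, at changes of 0.63, -0.18 and -0.48.

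Engulfment signalling had 1 of 17 tested genes higher and 2 lower, with a median change of -0.04. Elmo2, a relative of Elmo1 with the same role, had levels of 8.83 and 8.91 in control and 10.08 and 10.15 in the knockout, a rise of 1.24 ± 0.14 (limma adjusted p = 0.00387). Dock2, the haematopoietic partner of Elmo proteins, changed by -0.73 ± 0.15 (adjusted p = 0.0324). Arhgap12, a Rac-inactivating protein at the forming phagosome, changed by -1.28 ± 0.24 (adjusted p = 0.0237), while its other kept probe changed by -0.07 and was not called. Arhgap12 was detected on 1 of the 2 knockout arrays. Dock2 was not called with any 1 array left out, with median scaling or with no detection filter, and Arhgap12 was not called without control 2, without knockout 1 or with no detection filter. The adaptor Crk was not called on its brightest probe (0.06) but was higher on another (0.95), chosen here after its values were seen.

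Genes for phagosome maturation and cargo lipid handling had 4 of 18 tested higher and none lower, with a median change of 0.16. Pparg, a lipid-sensing nuclear receptor, had a limma adjusted p of 0.000339 for its fitted change. It was at least 3.60-fold higher in the knockout, again from a control level not well above background. It passed the filter only through the knockout arrays and was not kept with a knockout array left out. The oxysterol receptor Nr1h3 rose by 1.14 ± 0.15 (adjusted p = 0.00706), the cholesterol exporter Abcg1 by 1.503 ± 0.20 (adjusted p = 0.00623) and the lysosomal nuclease Dnase2a by 1.13 ± 0.16 (adjusted p = 0.0085). Dnase2a was not called without knockout 2, and its 2 other kept probes changed by -0.05 and 1.57. Among signals that attract or repel phagocytes 1 of 9 was higher, with a median change of 0.22. The nucleotide receptor P2ry6 rose by 2.20 ± 0.15 (adjusted p = 0.000506). The inhibitory receptor Pilra was not called on its brightest probe (-0.38) but was lower on its 2 other kept probes (-1.13 and -0.65), chosen here after their values were seen.

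**Figure D4:**
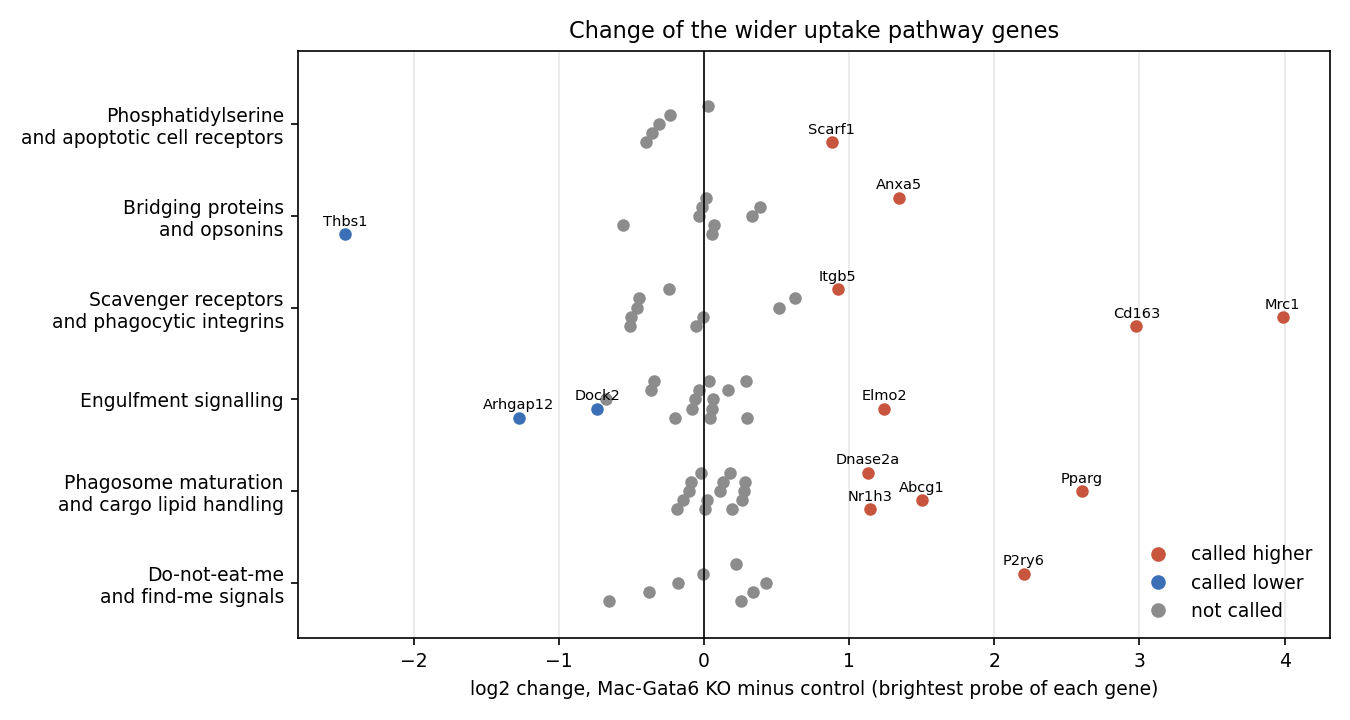
Change of each tested gene of the 6 wider lists by its brightest probe, Mac-Gata6 KO minus control on the log2 scale, with called genes named. Mrc1 at 3.99 and Cd163 at 2.98 lie farthest to the right and Thbs1 at -2.47 farthest to the left; the points of Itgb5 and Pparg are fitted values from a control level not well above background.

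Across settings the Gas6 and Mfge8 calls were the most stable among the members. Gas6 was called in all 15 alternative settings and the Mfge8 probes in all 15 and 14 in which they were tested. Axl was called in 11 of 15, the rising Stab1 probe in 10 of 15 and Vsig4 in 9 of 15, with the losses among arrays left out, a 2-fold minimum and, for Vsig4, the replicate number as a block.

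**Figure D5:**
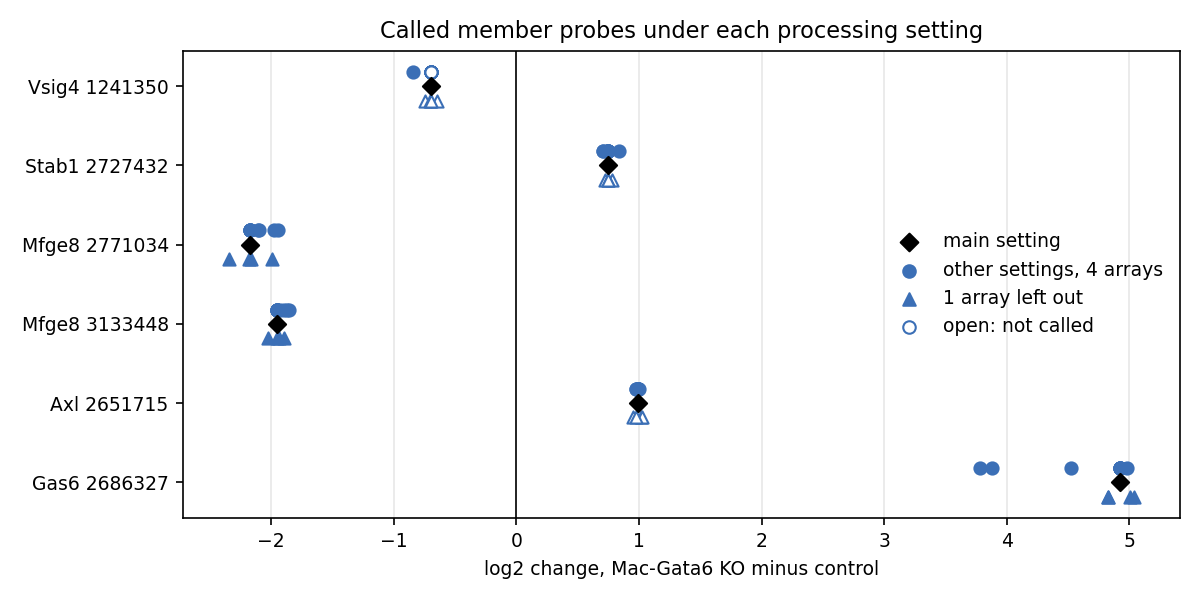
Log2 change of the 6 called member probes in the main setting (diamonds), in other settings with all 4 arrays (circles) and with 1 array left out (triangles), open where the adjusted p was not under 0.05. Gas6 spans 3.78 to 5.04, all called, and Axl, Stab1 and Vsig4 keep their direction while triangles turn open; the 2-fold minimum is not drawn.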

How the data were processed

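Total RNA from sorted peritoneal macrophages was labelled with biotin and measured on Illumina bead arrays, with 1 array per sample, per the labels' protocols. Non-normalized intensity values were deposited by the authors, beside a detection p-value per probe on every array, per the file headers. A further table deposited by the authors holds processed intensity values on a linear scale, with array medians of 142.05 to 142.14; its processing and the scanner software are not given in the sources read here. Blank lines (1349) were dropped.

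In R 4.3.3, the neqc function of limma 3.58.1 corrected background, added an offset of 16, quantile normalized and took log2. Detected probes made up 35.5% to 36.4% of each array. Probes with a detection p-value under 0.05 on at least 2 arrays were kept, 16713 in all. Symbols came from the platform annotation (1 symbol for 34885 probes, several for 18, none for 10378). Every kept probe was fitted with lmFit and eBayes, without a block, in two-sided tests. The lmFit and eBayes step alone was also run on simulated data, with independent normal noise of the fitted variances. Such data meet the assumptions of the fit by construction. That run does not check background correction, normalization or the detection filter. Wider lists and markers used the brightest kept probe of each gene, and up to 4 called genes of each list are named, with Gata6, all members and the 2 nearest patterns of each member called with at least 2-fold change. Members and lists were chosen with earlier results of these data known. Nothing says that replicates came from separate animals, so the spread behind the p-values may be technical. The number of arrays limits the precision.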

Additional observations from a re-analysis of the deposited data

How the results depend on the processing

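With all 4 arrays kept, 184 values of member probes kept their direction and side of the threshold, 4 lost the threshold, 4 passed it and 1 turned sign. The last was Stab1 probe ILMN_1231355, at 9e-04 with median scaling, close to 0 throughout. Over all kept probes, 1520 were higher and 1473 lower if background was not corrected, 1515 and 1462 on the authors' values, 1499 and 1452 under a robust variance with intensity trend, and 521 and 443 with a 2-fold minimum, against 941 and 845 in the main setting. A 2-fold minimum left 1 member probe higher, by construction. Median scaling moved the median change of all kept probes to 0.04. Leaving out 1 array, where the array left alone is taken to be as variable as the other group, gave 275 to 560 probes higher, 309 to 446 lower, 1 to 2 member probes higher and 2 lower. The test then has fewer degrees of freedom. Some uncalled probes turned direction: changes ran from -0.062 to 0.102 for Mertk, -0.23 to 0.071 for Timd4, -0.18 to 0.0032 for Stab1 probe ILMN_1231355, and for Elmo1 -0.13 to 0.15 (ILMN_2658407), -0.41 to 0.63 (ILMN_2745055), -0.47 to 0.25 (ILMN_2672847), -0.060 to 0.44 (ILMN_2628204) and -0.041 to 0.58 (ILMN_2672850). For other differences between settings the cause was not tested. The labels do not say that replicate numbers pair the samples. Deviations of arrays of the same number had a correlation of -0.14 over probes, a weak tendency to opposite directions, and probes are not independent. With the replicate number as a block 842 probes were higher and 749 lower, with 3 member probes higher and 2 lower, since Vsig4 had an adjusted p of 0.0556. Dock2 and Cpa3 were not called with the block either. Crossing the numbers, an alternative chosen after seeing the data, gave 930 and 837, with 4 and 3 member probes. The member probe gained there was the dim Elmo1 probe ILMN_2726261, at a limma adjusted p of 0.0418. No slide is named, so no slide block was fitted. Signal near background limits the size of the Gas6 change and all that the dim Elmo1 probes, Cd36 and the second Axl probe can show.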
